A study of Mus musculus with 186 samples.

Results

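Serine proteases on or near the epithelial surface, and the inhibitors that hold them in check, were examined in single cells of the adult mouse mammary gland. The genes were 7 listed members, Tmprss2, St14, Prss8, Prss22, Prss23, Spint1 and Spint2, of the 25275 genes that could be given a symbol. All 7 were found in the counts and all 7 passed the filter on low values. The members were chosen by measured values in part: Tmprss2 was selected on its ratio between luminal and basal cells in these same counts, and the rest were listed with earlier results known. The ratios between the populations are therefore given as descriptions and no test was made of them.

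Mammary ducts hold secretory and hormone-sensing luminal cells, wrapped by contractile basal cells. The cells came from adult female FVB/NJ mice with no treatment and were sorted after blood and endothelial cells (Ter119, CD31 or CD45) had been set aside, basal cells as CD29hiCD24+ and luminal cells as CD29loCD24+. They were captured 1 per site on a Fluidigm C1 chip, which makes full-length cDNA in each site. Of 96 basal cells 72 passed the study's thresholds on reads and genes, and of 90 luminal cells 76 did. By PCR plate, plate A carried 50 of the passing basal cells, plate B the remaining 22 together with 24 luminal cells, and plate C the last 52 luminal cells, so the populations met on plate B alone. The cells came from 8 mice, but the labels tie no cell to a mouse. Each population was therefore 1 sample, with no replicate check and no p-value, and the 95% intervals below (exact Poisson for levels, exact Clopper-Pearson for shares) cover counting error only, as reads were not collapsed to molecules. The ranges beside log2 ratios set the lower limit of the luminal level against the upper limit of the basal level, and the reverse. They are not 95% intervals of the ratio.

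The sort was checked against 10 basal and 10 luminal marker genes. The summed level of the basal markers had a median of 10764 CPM (reads of a gene scaled to the total of its library) in basal cells and 1.86 CPM in luminal cells. The summed luminal markers had medians of 929 CPM (basal) and 13299 CPM (luminal), and 3 or more of them had a read in 42 of 72 basal cells at 50000 reads per cell. Some cells stood apart from their label. Basal cell 90 had 2.77 CPM of basal and 6963 CPM of luminal markers, basal cell 13 had 3262 CPM of basal and 7876 CPM of luminal markers, and luminal cell 63 had 9921 CPM of basal and 6104 CPM of luminal markers. Of the other cell types, 3 or more of 6 endothelial markers had a read in 3 basal and 4 luminal cells, and 3 or more of 6 fibroblast markers in 2 basal and 7 luminal cells. No cell reached 3 of the 6 immune markers, of which 1 was at 0 reads. Pericyte markers reached 3 of 6 in 0 basal and 3 luminal cells. Basal cells also yielded fewer genes, with a median of 2614 at 50000 reads (2919 on plate A and 1579.5 on plate B) against 3391 in luminal cells (plate B 3232, plate C 3424).

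Trypsin-like serine proteases are made as inactive precursors and are switched on by a cut in the chain. Tmprss2 and St14 (matriptase) are anchored in the membrane by their amino-terminal end, Prss8 (prostasin) by a lipid anchor, and matriptase and prostasin act on each other in many epithelia. Their activity is limited by Spint1 (HAI-1) and Spint2 (HAI-2), membrane proteins with Kunitz domains that block the active site. Tmprss2 is best known for priming viral surface proteins and as an androgen-responsive gene of the prostate.

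The start regions are shown for Tmprss2 and for the Kunitz inhibitors Spint1 and Spint2, each of which had 1 start in the RefSeq table used. Prss23 had 7 starts there and is not shown, and St14, Prss8 and Prss22 had no match in it. The sequences are RefSeq start regions of mouse build GRCm38.p6, the assembly behind mm10, from 250 bases before to 50 bases after the start, read 5′ to 3′ on the gene's strand. Tmprss2 lies on the minus strand of chromosome 16 (chr16:97611146-97611445), Spint1 on the plus strand of chromosome 2 (chr2:119237110-119237409) and Spint2 on the minus strand of chromosome 7 (chr7:29281928-29282227). Capitals mark matches, on either strand, to an ETS-type motif (AGGAAG), a GC box (GGGCGG), a Grainyhead site (AACCNGTT) or a TATA box (TATAAA).
Tmprss2: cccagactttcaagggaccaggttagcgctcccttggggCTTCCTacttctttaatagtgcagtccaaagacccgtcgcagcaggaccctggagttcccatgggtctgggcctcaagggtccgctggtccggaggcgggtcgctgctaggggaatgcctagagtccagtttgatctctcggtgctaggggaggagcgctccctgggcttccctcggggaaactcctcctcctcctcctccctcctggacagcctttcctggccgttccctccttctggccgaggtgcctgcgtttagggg
Spint1: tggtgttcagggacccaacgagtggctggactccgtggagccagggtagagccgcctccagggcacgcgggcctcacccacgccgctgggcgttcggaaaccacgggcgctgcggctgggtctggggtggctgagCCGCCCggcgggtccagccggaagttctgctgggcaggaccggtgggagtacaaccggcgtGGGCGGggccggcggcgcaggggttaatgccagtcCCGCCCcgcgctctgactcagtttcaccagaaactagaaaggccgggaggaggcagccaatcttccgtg
Spint2: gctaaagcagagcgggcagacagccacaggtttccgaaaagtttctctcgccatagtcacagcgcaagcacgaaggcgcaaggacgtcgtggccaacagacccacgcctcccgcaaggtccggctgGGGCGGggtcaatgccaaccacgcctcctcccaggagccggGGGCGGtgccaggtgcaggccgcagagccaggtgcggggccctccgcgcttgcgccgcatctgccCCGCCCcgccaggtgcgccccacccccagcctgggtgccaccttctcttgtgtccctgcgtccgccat
The Tmprss2 region held 1 AGGAAG match and 0 GC boxes, while the Spint1 and Spint2 regions held 0 AGGAAG matches and 3 GC boxes each. The shorter ETS core GGAA was not searched and occurs in each of these regions, as in ccggaagt of Spint1. The regions are therefore not compared for ETS sites in general. Neither a Grainyhead site nor a TATA box was matched in any of these regions. Among all 32851 RefSeq start regions of this length, 35.4% held AGGAAG, 35.7% the GC box, 2.09% the Grainyhead site and 13.6% the TATA box. The GC content was 62.3% for Tmprss2, 69.7% for Spint1 and 69.3% for Spint2, above the median of 52.7% over all regions. A match to these letters is a description of the sequence and not a binding site.

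Of the 7 genes, 6 had a pooled level at least 2-fold higher in luminal cells and 1, Prss23, at least 2-fold higher in basal cells. Over all 14777 genes tested, 28.4% passed the same mark toward luminal and 18.2% toward basal cells. Tmprss2 and Prss8, with 11 and 4 basal reads, passed the filter on low values through luminal cells, so the filter had set their direction. Log2 ratios were taken as luminal over basal on the summed CPM, with 1 CPM added, and their median was 3.67 for the members and 0.18 for all genes. After the filters the cells held a median of 1192810 reads per basal and 1463710 per luminal cell.

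Tmprss2 (Entrez 50528; chr16:97564682-97659541, minus strand) was read in luminal cells almost alone. The 72 basal cells held 11 Tmprss2 reads together, a level of 0.130 CPM (0.0651 to 0.233), and the 76 luminal cells held 20119 reads, a level of 176 CPM (174 to 178). The log2 ratio was 7.29 (7.15 to 7.40). Of the 11 basal reads, 10 lay in basal cell 13, the cell with more luminal than basal marker RNA, and without it the basal level was 0.0120 CPM. Among luminal cells the level ran from 0 through a median of 28.6 CPM to 3287 CPM, so that the basal cells fell at the foot of the luminal range. Luminal expression was uneven, since 6 of the 76 cells held at least 50% of all luminal reads and luminal cell 15 alone held 3925. The luminal level was 275 CPM on plate B and 129 CPM on plate C, and without luminal cell 15 the plate B level was 175 CPM. The start region printed above is that of a transcript start at 97611195, inside the RefSeq span of the gene.

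St14, which encodes matriptase, had the same direction with a smaller contrast. St14 (Entrez 19143; chr9:31088590-31131811, minus strand) stood at 2.92 CPM (2.56 to 3.31) in basal cells from 246 reads and at 78.5 CPM (76.9 to 80.1) in luminal cells from 8973 reads. The log2 ratio was 4.34 (4.18 to 4.51). Per cell it ran from 0 to 53.7 CPM in basal cells with a median of 0, and from 0 to 1271 CPM in luminal cells with a median of 9.76. The ranges overlapped, because 23 of 76 luminal cells had no St14 read. Luminal cell 15 held more reads than any other cell for St14 as well as for Tmprss2, 1518 reads or 16.9% of the luminal St14 reads. A pseudogene, Gm16071, lies within the gene, and whether it shared reads with St14 was not tested.

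Prss8, which encodes prostasin, was nearly absent from basal cells and patchy in luminal cells. Prss8 (Entrez 76560; chr7:127925717-127930149, minus strand) had 4 reads in all basal cells (0.0474 CPM, 0.0129 to 0.121) and 6344 in luminal cells (55.5 CPM, 54.1 to 56.9), a log2 ratio of 5.75 (5.62 to 5.84). The luminal median was 0 and the highest luminal cell, cell 9, reached 1316 CPM with 1829 of the 6344 reads. Without cell 9 the luminal level was 40.0 CPM. On plate B the luminal level was 98.8 CPM, against 34.9 CPM on plate C, and without cell 9 the plate B level was 51.1 CPM. The ends of Prss8 and of Kat8, on the opposite strand, overlap, and whether the counting used strand is not stated. Kat8 had 1850 basal and 1678 luminal reads, against 4 and 6344 for Prss8.

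Prss22 encodes a secreted tryptase of epithelia. Prss22 (Entrez 70835; chr17:23993534-24000722, minus strand) stood at 10.7 CPM (10.0 to 11.4) in basal and 72.2 CPM (70.6 to 73.8) in luminal cells, a log2 ratio of 2.64 (2.53 to 2.76). The basal value came mostly from basal cell 7, a cell with 16278 CPM of basal and 358 CPM of luminal markers, which held 714 of the 903 basal reads. Without it the basal level was 2.27 CPM and the ratio 4.49. In the 22 basal cells of plate B no Prss22 read was found. Luminal cells ran from 0 through a median of 0.187 CPM to 1306 CPM, and 38 of 76 had no read.

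Prss23 was the only one of the 7 higher in basal cells. It encodes a secreted protease of the same fold whose substrates are not well known. Prss23 (Entrez 76453; chr7:89507783-89527187, minus strand) stood at 237 CPM (234 to 240) in basal and 24.0 CPM (23.1 to 24.9) in luminal cells, a log2 ratio of -3.25 (-3.32 to -3.18). Basal cells ran from 0 through a median of 13.9 CPM to 5581 CPM, and luminal cells from 0 through a median of 0 to 635 CPM. Single cells weighed on both sides. Basal cell 85 held 6289 of the 19966 basal reads, and without it the ratio was -2.73. Luminal cell 24 held 1718 of the 2745 luminal reads. Both cells carried fibroblast marker RNA, with a summed level of 4564 CPM in basal cell 85 and 3530 CPM in luminal cell 24, and its part in the Prss23 level was not tested. Without luminal cell 24 the luminal level was 9.20 CPM and the ratio -4.54. With basal cell 85 and luminal cell 24 both left out the ratio was -4.02. Without the 6 basal and 10 luminal cells whose markers were in doubt it was -5.38. Those were basal cells 13 and 90, luminal cell 63 and the cells with 3 or more markers of another cell type. They included luminal cell 24 but not basal cell 85, which had reads of 2 fibroblast markers. The ratio of -5.38 thus left out the top luminal cell and kept the top basal cell.

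**Figure D1:**
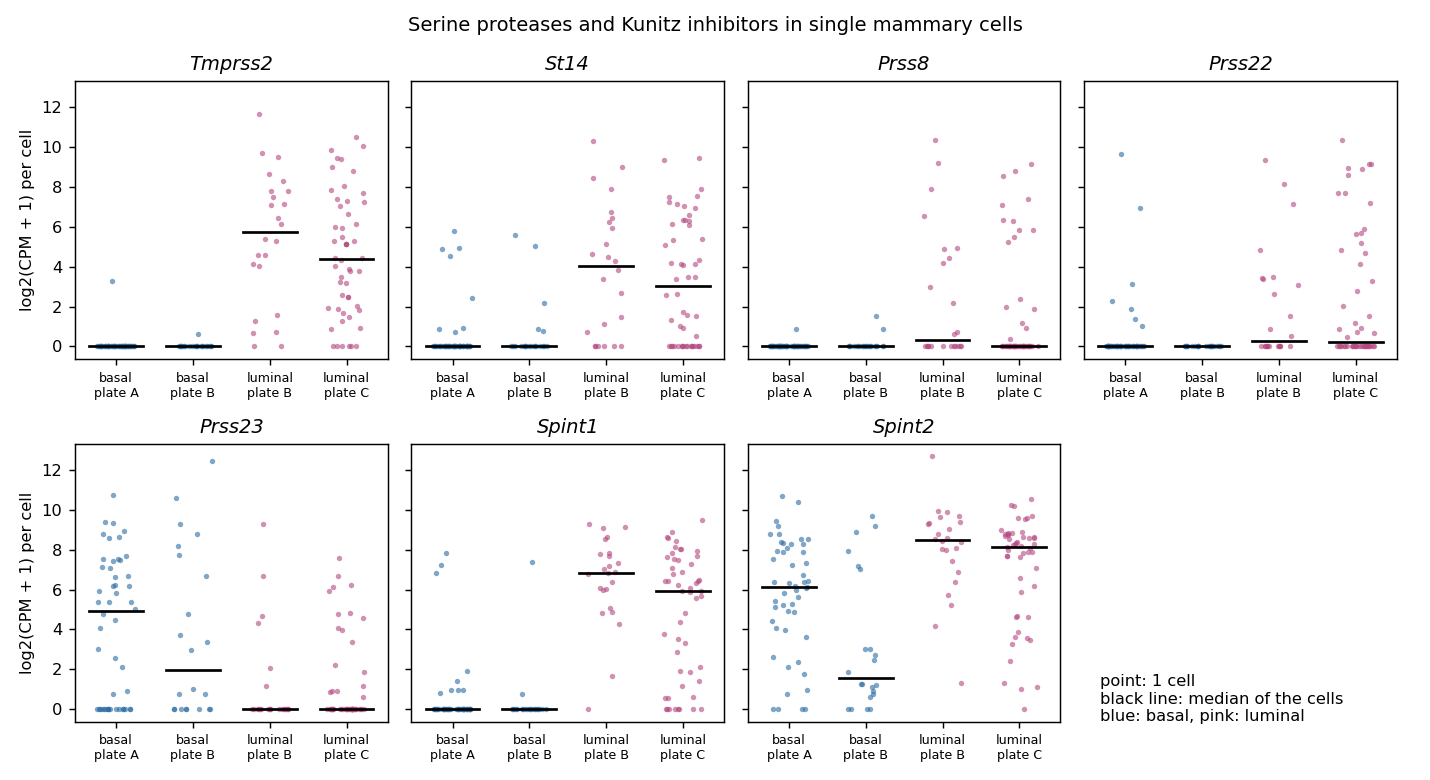
Level of each gene per cell, as log2(CPM + 1), for basal cells (plates A, B) and luminal cells (plates B, C). Each point is 1 cell and the black line the median. Tmprss2 lay at 0 in all but 2 basal cells, Spint2 was spread over both populations, and Prss23 was higher in basal cells.

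The inhibitors differed between themselves. Spint1 (Entrez 20732; chr2:119237360-119249535, plus strand) stood at 9.43 CPM (8.78 to 10.1) in basal and 131 CPM (129 to 134) in luminal cells, a log2 ratio of 3.67 (3.55 to 3.78). Luminal cells ran from 0 through a median of 76.7 CPM to 730 CPM, the most even distribution of the 6 luminal-high genes apart from Spint2, with 10 cells holding at least 50% of the reads. In basal cells the reads again lay in a few cells, 259 of 795 in basal cell 13 and 239 in basal cell 90, the cells with high luminal markers. Without the cells in doubt the ratio was 4.90.

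Spint2 was the member most shared by the populations. Spint2 (Entrez 20733; chr7:29256330-29282059, minus strand) stood at 157 CPM (154 to 159) in basal and 363 CPM (360 to 367) in luminal cells, a log2 ratio of 1.21 (1.17 to 1.25). Basal cells ran from 0 through a median of 44.8 CPM to 1638 CPM, and luminal cells from 0 through a median of 306 CPM to 6596 CPM. The ranges overlapped, while the luminal median was higher. The luminal top was luminal cell 23, a shallow library of 105674 reads. The next luminal cell, cell 70, stood at 1480 CPM, below the basal top. On plate B, where both populations were processed together, the ratio was 1.78, and for basal cells of plate A against luminal cells of plate C it was 0.95, below the 2-fold mark.

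Levels of different genes were compared per length, as CPM per kilobase of gene length (RPKM). In luminal cells Spint2 led with 249 RPKM, followed by Spint1 with 57.8, Tmprss2 with 55.7, Prss22 with 54.5, Prss8 with 29.8, St14 with 19.5 and Prss23 with 7.44 RPKM. Spint1, Tmprss2 and Prss22 could not be ranked, since their order changed with the plate. On plate B the values were 87.1 RPKM for Tmprss2, 77.7 for Spint1 and 34.8 for Prss22, and on plate C 40.7, 48.3 and 63.9 RPKM. Luminal cell 15 decided the order on plate B, where Tmprss2 stood at 55.2 RPKM without it, and Prss22 stood at 15.8 RPKM there without luminal cell 7. In basal cells Spint2 led with 107 RPKM, followed by Prss23 with 73.4, Prss22 with 8.09, Spint1 with 4.14, St14 with 0.726, Tmprss2 with 0.0413 and Prss8 with 0.0255 RPKM. Neighbours in this order could not be ranked where single cells held the reads. Prss22 stood at 1.71 RPKM without basal cell 7, below Spint1, and Tmprss2 at 0.00380 RPKM without basal cell 13, below Prss8. On basal plate B, Prss23 (126 RPKM) stood above Spint2 (82.5 RPKM), but the values were 59.0 RPKM for Prss23 without basal cell 85 and 46.3 RPKM for Spint2 without basal cell 92.

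Detection was compared after every cell had been thinned to 50000 reads, so that depth did not differ. Tmprss2 had a read in 45 of 76 luminal cells (59.2%, 47.3 to 70.4). None was found in the basal cells (0 of 72, interval 0 to 4.99%), where 3 counts would be a share of 4.17%. St14 was detected in 33 luminal and 6 basal cells, Prss8 in 18 and 0, and Prss22 in 21 and 3. At this depth these proteases were thus each read in a minority of luminal cells, Tmprss2 excepted. For St14 the interval ran from 32.1 to 55.3%, and with all reads it was detected in 53 of 76 luminal cells. Prss23 had the opposite direction, with 11 luminal cells (14.5%, 7.45 to 24.4) and 34 basal cells (47.2%, 35.3 to 59.3). Spint1 was detected in 51 luminal (67.1%, 55.4 to 77.5) and 4 basal cells (5.56%, 1.53 to 13.6), and Spint2 in 67 luminal (88.2%, 78.7 to 94.4) and 45 basal cells (62.5%, 50.3 to 73.6).

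With all reads, Tmprss2 was detected in 68 luminal and 2 basal cells, St14 in 53 and 13, Prss8 in 29 and 3, Prss22 in 38 and 7, Prss23 in 24 and 47, Spint1 in 67 and 11, and Spint2 in 75 and 64. The order of the populations was the same at both depths for all 7 genes. At 50000 reads the luminal share of Tmprss2 was close on both plates, 14 of 24 on plate B against 31 of 52 for plate C. Basal Spint2 was not, with 39 of 50 on plate A against 6 of 22 for plate B. The number of genes per cell, given above, was also lower on basal plate B, and its part in that difference was not tested.

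**Figure D2:**
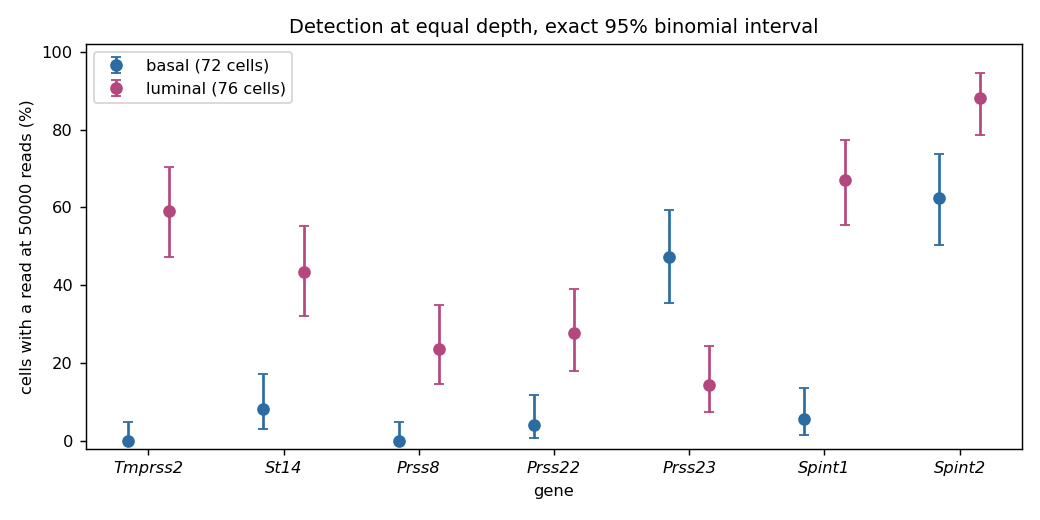
Share of cells with at least 1 read of each gene after thinning to 50000 reads, in percent, for 72 basal and 76 luminal cells; bars are exact 95% binomial intervals. The luminal share was the higher for all but Prss23. The bars cover counting error and compare no replicates.

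Pairing in single cells was taken over the membrane-anchored proteases Tmprss2, St14 and Prss8 and the inhibitors Spint1 and Spint2. At 50000 reads, 57 of 76 luminal cells (75.0%, 63.7 to 84.2) had a read of at least 1 protease and at least 1 inhibitor. A further 14 had an inhibitor only, 4 a protease only and 1 neither. The product of the single shares, what independent detection would give, was also 75.0%. In basal cells, 4 of 72 (5.56%, 1.53 to 13.6) had both, 43 an inhibitor only, 2 a protease only and 23 neither, and the product was 5.44%. Most basal cells with either class thus had inhibitor RNA and no read of these proteases.

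The luminal cells with a protease only had fewer genes, a median of 1076.5 at 50000 reads against 3546 in the cells with both. With all reads, only luminal cell 45 had protease reads (9 of Tmprss2) and no inhibitor read, and 71 of 76 luminal cells had both. Of the basal cells, 16 had both with all reads and only cell 71 had a protease (32 reads of St14) and no inhibitor. Counted over the 5 genes at 50000 reads, 5 luminal cells had all of them, 19 had 4, 23 had 3, 16 had 2, 12 had 1 and 1 had 0. No basal cell had more than 2, which 6 had, while 43 had 1 and 23 had 0.

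The pairs were close to the product of the single shares for most of the 21 combinations. At 50000 reads the widest gap in luminal cells was between St14 and Spint1, with 28 cells holding both against a product of 22.1 cells. Spint1 was read in 28 of the 33 St14 cells, and St14 in 28 of the 51 Spint1 cells. Tmprss2 and Spint1 shared 34 cells (product 30.2), Prss22 and Spint1 18 (14.1), and Tmprss2 and St14 22 (19.5). Gaps of like size were found between proteases, with 13 cells for St14 and Prss22 (9.12), 16 for Tmprss2 and Prss22 (12.4) and 8 for St14 and Prss23 (4.78). Pairs with Prss8 lay near the product, with 12 cells for Spint1 (12.1), 17 for Spint2 (15.9) and 9 for St14 (7.82). Tmprss2 and Spint2 were read together in 38 cells against a product of 39.7. With all reads the St14 and Spint1 count was 49 against 46.7, and the widest gap was then that of Prss22 and Spint1, 37 against 33.5. The gaps are descriptions, and the part of genes per cell in them was not tested.

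**Figure D3:**
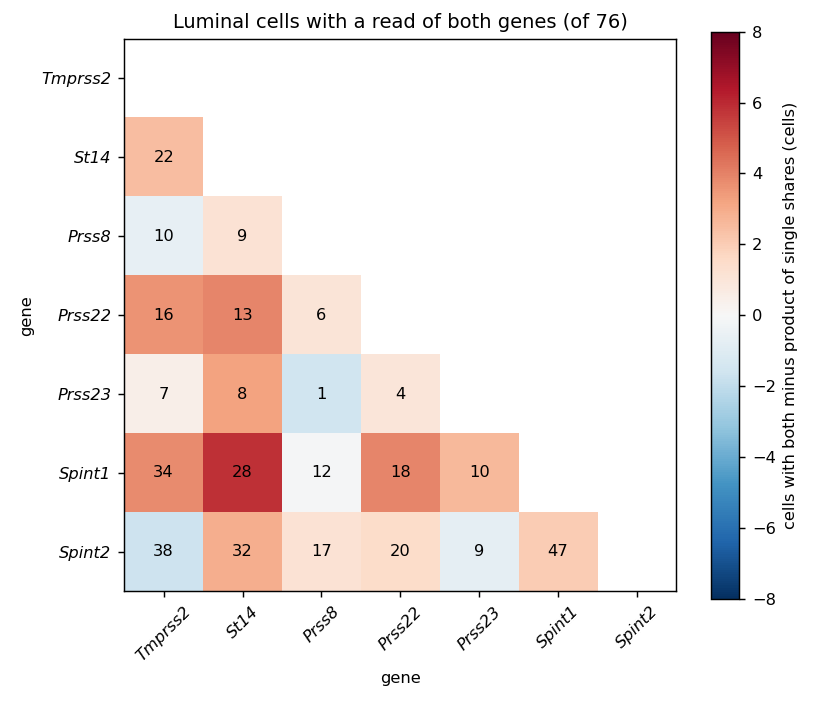
Number of luminal cells (of 76, at 50000 reads) with a read of both genes of a pair, with colour for the count minus the product of the single shares, in cells. The St14 and Spint1 pair had the widest gap at this depth, 28 cells against 22.1.

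RNA of Spint1 and Spint2 exceeded that of Tmprss2, St14 and Prss8 per kilobase in most cells. Other proteases were not in the sum, among them Tmprss13, which alone stood at 275 RPKM in luminal cells. With all reads, the sum of Spint1 and Spint2 was above that of Tmprss2, St14 and Prss8 in 62 of 76 luminal cells (81.6%, 71.0 to 89.5) and in 64 of the 66 basal cells with a read of either (97.0%, 89.5 to 99.6). In cells with both, the log2 ratio of inhibitor over protease ran from -4.97 through a median of 2.42 to 10.92 over 71 luminal cells. Over 16 basal cells it ran from -1.95 through 5.75 to 11.77. Pooled, the inhibitors stood at 307 RPKM against 105 RPKM for the proteases in luminal cells, 2.92 times as much, and at 111 against 0.793 RPKM in basal cells, 140 times as much. Spint2 gave 249 of the 307 RPKM of luminal inhibitor. With St14, Prss8 and Spint1 alone, the inhibitor was higher in 47 of 71 luminal cells (66.2%). RNA levels do not give the amount or activity of the proteins.

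**Figure D4:**
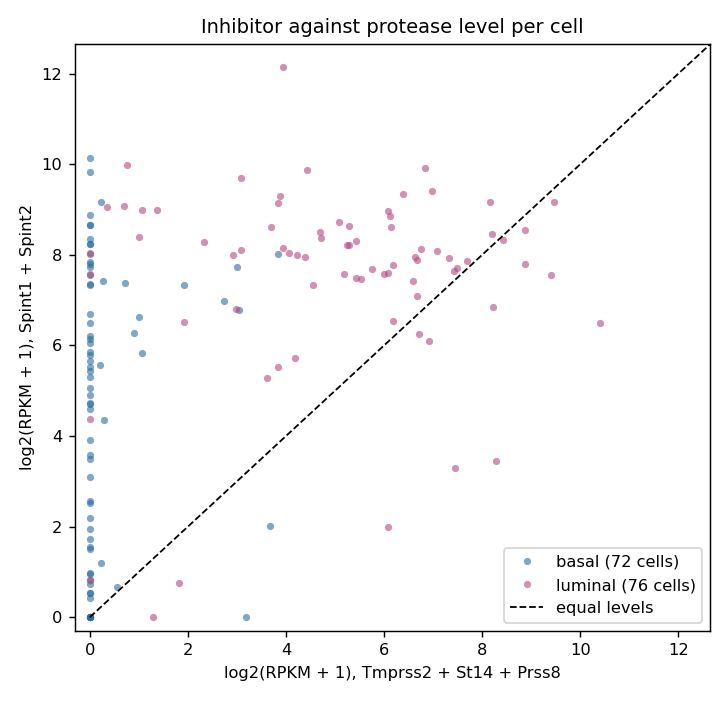
Summed inhibitor level (Spint1 and Spint2) against summed protease level (Tmprss2, St14 and Prss8) per cell, both as log2(RPKM + 1), with all reads; each point is 1 cell and the dashed line marks equal levels. Luminal cells lay above the line in 62 of 76, and most basal cells lay at 0 on the protease axis.

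Within the luminal cells, detection of the members was set beside markers of hormone-sensing mature cells and of progenitor cells at 50000 reads. Spint1 was read in 48 of 63 cells with the mature marker Cited1 and in 3 of 13 without it, and in 47 of 60 cells with Areg and 4 of 16 without. Cells with these markers also had more genes, a median of 3517 against 2220 for Cited1 and 3595.5 against 2192 for Areg. Tmprss2 was read in 40 of 63 Cited1 cells and 5 of 13 others. Areg (39 of 60 and 6 of 16) and Foxa1 (28 of 41 and 17 of 35) split Tmprss2 in the same direction. The receptor genes Esr1 and Pgr of the same marker list did not, with 24 of 42 Esr1 cells against 21 of 34 others and 26 of 44 Pgr cells against 19 of 32 others. Prlr, also of that list, was read in all 76 cells and could not split them. St14 was read in 15 of 21 cells with the progenitor marker Kit and 18 of 55 without, where genes per cell were closer (3652 and 3266), and Prss23 in 7 of 21 and 4 of 55. Elf5 and Lalba, other progenitor markers, split St14 little (10 of 21 and 23 of 55 cells, 9 of 19 and 24 of 57). Aldh1a3 (10 of 16 and 23 of 60) and Cd14 (18 of 32 and 15 of 44) went the way of Kit. So did Csn3 (23 of 45 and 10 of 31). Of the mature markers, Cited1 (30 of 63 and 3 of 13) and Foxa1 (21 of 41 and 12 of 35) did too. Pgr (22 of 44 and 11 of 32) and Areg (28 of 60 and 5 of 16) did as well. Esr1 (18 of 42 and 15 of 34) did not. For Prss23 the split was small by Elf5 (4 of 21 and 7 of 55) and Cd14 (5 of 32 and 6 of 44). By Aldh1a3 (5 of 16 and 6 of 60), Csn3 (9 of 45 and 2 of 31) and Lalba (6 of 19 and 5 of 57) it went the same way as by Kit. Without the cells in doubt Prss23 was read in 6 of 66 luminal cells. The part of genes per cell in these differences was not tested.

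The genes most like each member were sought by Spearman correlation across the cells of 1 population at 50000 reads, among 5713 genes in luminal and 4353 in basal cells. For the 3 closest genes of each member the coefficient lay between 0.38 and 0.56, and only 6 of these 21 genes were again among the 3 closest after another random thinning. Those 6 were Ceacam1 for St14, Commd6 and Dhrs3 for Prss8, Tmem216 for Prss22, Map2k2 for Spint1 and Arhgap1 for Prss23 in basal cells. None of the closest genes of Tmprss2, among them Pfkfb2 at 0.43, was kept. The cells share depth and genes per cell, and such values in sparse counts are no finding.

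The wider family was taken from a list of 66 other proteases, inhibitors, substrates and receptors, of which 35 passed the filter. In luminal cells 15 of the 35 were at least 2-fold higher, in basal cells 13, and 7 lay between, against 28.4% and 18.2% over all genes. The counts took the plates together and were not repeated by plate, where some calls did not hold. On plate B the log2 ratio was -1.66 for F2rl1 (1.75 over all plates), -0.06 for Serpinb5 (-1.40) and -0.40 for Tfpi2 (-2.50). Without its top luminal cell the ratio of F2rl1 over all plates was -0.13. Of 6 other transmembrane serine proteases 5 were luminal-high and 0 basal-high. Of 9 other serine proteases 3 and 5 were, of 9 inhibitors 1 and 6, and of 11 substrates and receptors 6 and 2. Genes nearly without reads in 1 population passed the filter through the other, so the filter had set their direction. Tmprss4, Tmprss6, Tmprss11a, Klk11 and Scnn1a were among such genes, with 0, 1, 1, 1 and 2 basal reads. So were Hgf and Tfpi2, with 4 and 1 luminal reads. At 50000 reads Tmprss4 was detected in 6 luminal cells and Tmprss11a in 2.

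Tmprss13 was the most abundant of the transmembrane proteases, with 275 RPKM in luminal cells against 55.7 RPKM for Tmprss2. It had a read in 72 of 76 luminal and 4 of 72 basal cells at 50000 reads, and its log2 ratio was 4.58. Basal cell 90, the basal-sorted cell with luminal markers, held 62.1% of its basal reads, and without that cell the ratio was 5.90. Tmprss6, a matriptase relative known for its part in iron control, had a ratio of 6.42. Only 12 luminal cells had a Tmprss6 read at 50000 reads, and luminal cell 8 held 42.0% of all its luminal reads. Klk11, a kallikrein, had a ratio of 4.39 with reads in 10 luminal cells at 50000 reads, and Htra3 4.54 with reads in 8. Without the luminal cell holding the most reads the ratio was 5.67 for Tmprss6, 3.66 for Klk11 and 3.88 for Htra3. Of the subunits of the epithelial sodium channel, a known prostasin target, Scnn1a had a ratio of 4.40 and Scnn1b of 4.80. At 50000 reads they were detected in 20 and 9 luminal cells. The ratio of Scnn1g was 2.37, but luminal cell 24 held 82.0% of its luminal reads and without that cell it was 0.07.

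On the basal side stood Hgf (-4.84), the growth factor whose activator is held by HAI-1 and HAI-2, Plau (-4.73), the urokinase, and Tfpi (-3.92), Serpine2 (-3.78) and Prss16 (-3.24), of which Tfpi and Serpine2 are secreted inhibitors. Several of these rested on single cells. Basal cell 84 held 81.8% of basal Plau reads and basal cell 92 held 77.9% of basal Tfpi reads. Without the top basal cell the ratio was -2.35 for Plau, -1.83 for Tfpi, -3.43 for Hgf, -2.83 for Serpine2 and -1.77 for Prss16. Without the top luminal cell it was -4.68 for Serpine2 and -4.72 for Tfpi. On plate B alone the ratio of Prss16 lay near 0 (0.08) and that of Hgf was -1.29. The ratios of Plau (-7.64), Tfpi (-5.66) and Serpine2 (-5.52) were wider there, each with its top basal cell on that plate.

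**Figure D5:**
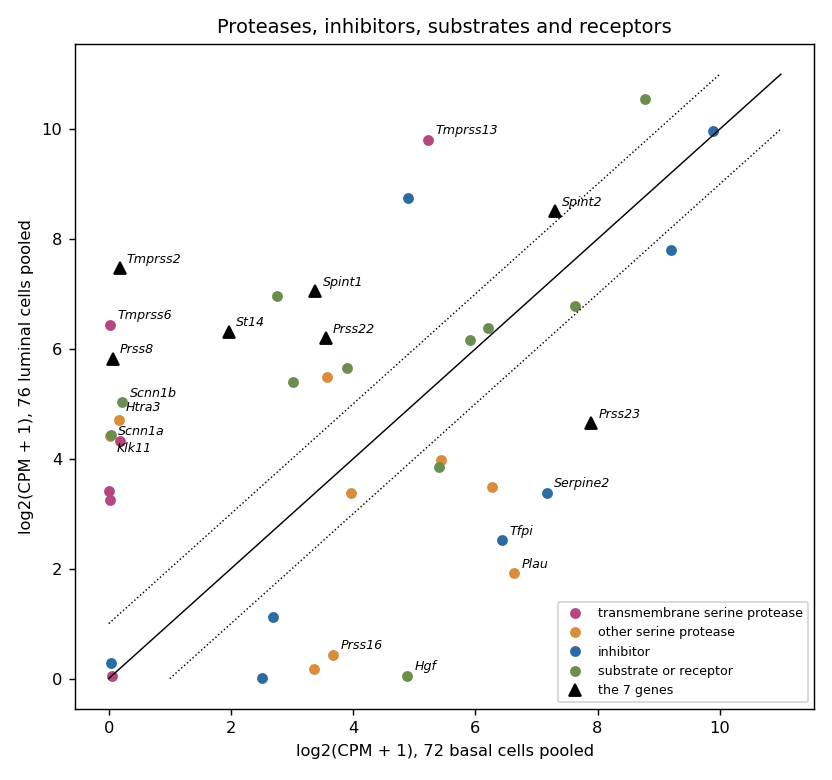
Pooled level in luminal against basal cells, as log2(CPM + 1), of the 7 genes (triangles) and the listed family genes that passed the filter (circles, by class, 1 left out); the solid line marks equal levels and the dotted lines 2-fold. Tmprss2, Prss8 and Tmprss6 lay at the left edge near 0 in basal cells, and Prss23, Hgf, Plau, Tfpi and Serpine2 lay below the diagonal.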

How the data were processed

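RNA was measured in 96 basal and 90 luminal cells, grouped by the submitters' labels. The authors aligned reads to mm10 with Subread, summarised them per gene with featureCounts (versions not given in the sources used here) and deposited raw counts per gene and cell. Strand and the handling of reads mapping to several genes were not stated. Gene length is that of the deposited files. Of 27179 identifiers 25275 matched a RefSeq symbol, and the 1904 others (1.94% of counts) were left out. Raw totals ran from 3105 to 3784407 reads.

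From the deposited counts, genes of mitochondria (15) and of ribosomal proteins (120) were taken out, then cells under 50000 reads or 1000 genes (basal) or 100000 reads or 1500 genes (luminal), the study's thresholds, were left out. Genes with 1 CPM in 3 cells were kept (14777). No doublet caller was run. Counts were summed per population, scaled to CPM and, for ratios, 1 CPM was added. RPKM divided by length. For detection each cell was thinned to 50000 reads. No library appeared to be present in duplicate, since within a group the chi-square per gene of any 2 cells was at least 47.4 (basal) and 58.7 (luminal), far above sampling noise.

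The members, marker lists and the family list were chosen with earlier results of these data known. The text names the 7 members, the 6 family genes per direction with the largest ratio and at least 10 CPM in the higher population, and for each member the 3 most correlated genes. A basal-high family gene is counted but not reported here by name. Other genes named (Kat8, Gm16071, Scnn1g, Tmprss4, Tmprss11a, F2rl1, Serpinb5, Tfpi2 and the subset markers) overlap a member or belong to a listed set, and were chosen after their values were seen. Alternatives were other cell filters, scalings (TMM, edgeR 4.0.16), added CPM, depths, plates and left-out cells. Scripts were tested on simulated data. Python 3.11.15, numpy 2.4.6, scipy 1.17.1, pandas 2.3.3, matplotlib 3.10.9 and R 4.3.3 were used.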

Additional observations from a re-analysis of the deposited data

Results flagged for a closer look

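Reads of the members were also found in the cells below the thresholds, which no comparison used, above the level that 3 reads would give (11.3 CPM over 24 basal cells and 7.25 CPM over 14 luminal cells). In the basal cells left out, Tmprss2 stood at 15.0 CPM, Spint1 at 22.6 CPM and Spint2 at 45.1 CPM, from 4, 6 and 12 reads. Prss23 stood at 9265 CPM there, with 2448 of 2465 reads in basal cell 75, a cell of 27682 reads. In the luminal cells left out, Tmprss2 stood at 2204 CPM, with 495 of 912 reads in luminal cell 82, St14 at 324 CPM, Spint2 at 189 CPM, and Spint1 at 36.3 CPM, all 15 reads in luminal cell 57. These libraries are shallow, and their values were not tested.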

How the results depend on the processing

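No paired analysis was possible because a cell number shared by the populations names no common animal, and the results come from no test. No value of the 7 members changed direction under the alternatives run. Of the family genes named, Prss16 (0.08) and F2rl1 (-1.66) did on plate B. Some family genes that were counted but not named also changed direction there. Leaving out the cells in doubt and taking the exact expectation over thinnings were alternatives chosen after seeing the data. Over 11 alternatives the log2 ratio ranged from 4.20 to 9.58 for Tmprss2, 2.78 to 4.76 for St14, 2.70 to 8.56 for Prss8, 1.99 to 5.56 for Prss22, -5.38 to -2.86 for Prss23, 2.86 to 4.90 for Spint1 and 0.95 to 1.78 for Spint2. With basal cell 85 alone left out, the ratio of Prss23 was -2.73. The added CPM set the widest part of these ranges for Tmprss2 and Prss8, whose basal levels were near 0. For basal plate A against luminal plate C 5 members in place of 6 were luminal-high. TMM scaling moved the median log2 ratio of all genes by -0.14.

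Shares moved with the depth and with the reads asked for. Without thinning, Tmprss2 was detected in 89.5% of luminal cells, and a protease with an inhibitor in 93.4% of luminal and 22.2% of basal cells. With at least 5 reads asked for, these shares were 34.2%, 48.7% and 0%. On plate B the pairing share was 87.5% in luminal and 0% in basal cells. With St14, Prss8 and Spint1 only, the inhibitor was higher in 66.2% of luminal cells. Of the other values of single genes, 127 stayed within their counting interval and 76 moved beyond it. Depth limits what a cell without a read can show, and with no mouse named for a cell, mouse and plate cannot be told apart from cell-to-cell spread.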
